A study of Mus musculus with 8 samples.

Results

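The small nucleolar RNA (snoRNA) host genes described here are Gas5, Snhg1, Snhg3, Snhg5, Snhg6, Snhg8 and Snhg12. They were chosen by symbol from the deposited polysome table, as spliced host RNAs that engage ribosomes without encoding a known protein, and all 7 were found among its 21765 rows. The samples were sucrose gradient fractions of mouse main olfactory epithelium, the sensory lining of the nose, treated with 100 µg/mL cycloheximide at dissection. About 42 fractions of 350 µL were collected from each lysate, and 50 µL of each of fractions 27 to 34 (early, lighter polysomes) or 35 to 42 (late, heavier polysomes) went into a pool. The wild-type (WT) genotype was Mex3a flox/flox or Mex3a flox/+ and no Cre, and the conditional knockout (cKO) was Mex3a flox/flox with a Cre allele whose line is not reported here. No age or other treatment was given, and the cycloheximide treatment was shared by both genotypes. There were 2 WT and 2 cKO lysates, every lysate giving 1 early and 1 late library, which makes 4 groups of 2 libraries. The labels name lysates but do not say how many mice each held, so p-values measure the spread between these samples. The series' design text speaks of sorted cells and of other transgenes, which the labels of these samples do not name.

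A polysome gradient separates RNAs by how many ribosomes they carry, so an RNA with a long coding sequence can travel to the heavy end while one with a short reading frame cannot hold many ribosomes. snoRNAs are nucleolar guides that direct ribose methylation (box C/D class) or pseudouridylation (box H/ACA class) of ribosomal RNA. In vertebrates most are cut out of introns, and in host genes of the kind described here the exons are little conserved between species. Their spliced RNAs are exported, are read by ribosomes from short reading frames, and several, Gas5 the best known, are degraded by nonsense-mediated decay, the pathway that removes RNAs on which a stop codon lies upstream of exon junctions. Many snoRNA host genes, ribosomal protein genes among them, begin transcription at a C within a run of pyrimidines, the 5′ terminal oligopyrimidine start that places translation under nutrient-dependent control.

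The reading frames were taken from GENCODE M21 on GRCm38, using for each gene 1 spliced isoform with the best transcript support. Gas5, on chromosome 1 at 161034422 to 161038539 (plus strand), had 12 exons. Snhg1 lies on chromosome 19 at 8723475 to 8726443 (plus strand), Snhg3 on chromosome 4 at 132348014 to 132353686 (minus), Snhg5 on chromosome 9 at 88521050 to 88522929 (minus), Snhg6 on chromosome 1 at 9941959 to 9944118 (minus), Snhg8 on chromosome 3 at 123507552 to 123508404 (minus) and Snhg12 on chromosome 4 at 132308623 to 132311024 (plus). All 7 are annotated as noncoding (processed transcript or lincRNA). The spliced isoforms were 437 nt (Snhg3) to 1004 nt (Snhg5) long, and held 7 to 24 ATG triplets. The longest frame from an ATG to a stop had 35 codons in Snhg8, 39 in Gas5, 41 in Snhg1, 43 in Snhg3, 53 in Snhg6, 54 in Snhg12 and 66 in Snhg5, without the stop. A scanning ribosome meets the first ATG of the RNA first, and the frame that starts there is printed for every host, because its length bears on how many ribosomes the RNA could hold. ATG and stop codon are in capitals.
Gas5 first frame: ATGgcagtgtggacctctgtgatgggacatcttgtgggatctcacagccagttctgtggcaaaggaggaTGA
Snhg1 first frame: ATGctaacttctctacaggttTGA
Snhg3 first frame: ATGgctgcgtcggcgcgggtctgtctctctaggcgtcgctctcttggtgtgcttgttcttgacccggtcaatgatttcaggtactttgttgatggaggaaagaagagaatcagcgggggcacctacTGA
Snhg5 first frame: ATGaccaagTGA
Snhg6 first frame: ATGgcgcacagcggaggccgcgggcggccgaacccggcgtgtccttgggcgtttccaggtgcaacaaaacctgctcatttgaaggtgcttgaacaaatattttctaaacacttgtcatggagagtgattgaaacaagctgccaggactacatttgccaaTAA
Snhg8 first frame: ATGTAG
Snhg12 first frame: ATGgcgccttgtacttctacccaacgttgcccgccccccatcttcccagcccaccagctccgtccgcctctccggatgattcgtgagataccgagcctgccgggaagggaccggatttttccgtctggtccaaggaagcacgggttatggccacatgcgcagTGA

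The hosts differed in this first frame. In Snhg8 the ATG was followed directly by a stop (1 codon), in Snhg5 the frame had 3 codons and in Snhg1 7 codons, whereas Gas5 had 23, Snhg3 42, Snhg6 53 and Snhg12 54 codons. Only in Snhg6 and Snhg12 was the first frame of this isoform also the longest one. At least 1 exon junction lay 50 nt or more after the first stop in 6 of 7 hosts, the arrangement known to mark an RNA for nonsense-mediated decay. There were 7 such junctions in Gas5, 7 in Snhg1, 4 in Snhg5, 2 in Snhg12, 1 in Snhg6 and 1 in Snhg8, and Snhg3 had 0. Other isoforms gave other frames (longest frame 39 to 81 codons over the 5 spliced Gas5 transcripts), and the isoform present in the tissue is not known from a table of genes. GENCODE also lists transcripts that retain an intron, 20 of 25 for Gas5 and 14 of 18 for Snhg1. They were 3 of 6 for Snhg5 and 1 of 3 for Snhg8. Whether the deposited values count such transcripts is not given in the sources used here.

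The annotated starts were read from RefSeq (GRCm38.p6), which held 6 of the 7 hosts. Windows are printed from 40 bases before the start to 40 bases from the start onward, on the gene's strand. In capitals is a C followed by at least 4 pyrimidines (C or T), with the C within 5 bases of the annotated start, searched on the gene's strand only. The windows are chr1:161035126-161035205 (plus) for Gas5, chr3:123508297-123508376 (minus) for Snhg8, chr4:132308638-132308717 (plus) for Snhg12 and chr4:132353647-132353726 (minus) for Snhg3.
Gas5 start: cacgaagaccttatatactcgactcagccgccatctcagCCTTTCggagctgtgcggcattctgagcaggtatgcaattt
Snhg8 start: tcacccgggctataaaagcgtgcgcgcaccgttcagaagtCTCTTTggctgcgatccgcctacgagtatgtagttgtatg
Snhg12 start: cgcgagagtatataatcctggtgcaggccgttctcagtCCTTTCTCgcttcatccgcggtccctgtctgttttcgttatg
Snhg3 start: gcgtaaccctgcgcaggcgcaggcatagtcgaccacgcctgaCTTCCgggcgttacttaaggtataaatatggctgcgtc

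Such a run stood at an annotated start of 4 of these 6 hosts, against 18.3% of all 32851 RefSeq starts searched the same way and 21.2% of 27025 genes. It also stood at 4 of 10 other noncoding snoRNA hosts, 4 of 12 ribosomal protein hosts and 4 of 9 genes of snoRNA-assembling proteins. Other coding hosts had it in 2 of 9 genes, nuclear long noncoding RNAs in 2 of 10 and nonsense-mediated decay factors in 1 of 9. Gas5 has a second RefSeq start further upstream, which held none. Snhg1 held no run that met the rule, although a tract of pyrimidines without a leading C (tttttcctt) lay just downstream of its start. In Snhg5 the run began 10 bases downstream. With at least 6 pyrimidines after the C, 1 of the 6 hosts kept a run (Snhg12), against 7.64% of genes. A match describes letters in a window and shows neither the start used in this tissue nor any regulation. A missing match does not show that a start of this kind is absent.

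The authors deposited TPM (transcripts per 1000000), a level per length of RNA that sums to 1000000 in each library. Whole reads were inferred from the steps of the values: libraries held 7776792 to 12771079 reads, fewest in cKO late replicate 2. Mex3a, the deleted gene, stood at 93.2 to 115.6 TPM in the 4 WT libraries and at 11.1 to 19.8 TPM in the 4 cKO libraries. The genotype tag of WT early replicate 2 is that of the cKO mice, while its title and library name say WT. The title was followed, and that library held 115.6 TPM of Mex3a. Of 40 measured markers of 9 cell types of the tissue, 0 were at 0 in all libraries, so the labelled tissue's markers were present.

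Each host RNA was found in all 8 libraries. Gas5, a growth arrest transcript also known as a decoy for the glucocorticoid receptor, stood in WT at 37.4 and 46.2 deposited TPM (early) and 27.9 and 21.8 (late), and in cKO at 31.2 and 42.2 (early) and 20.96 and 12.5 (late), lysate 1 first in each pair. These rest on 86 to 567 inferred reads per library. All 4 late libraries lay below all 4 early ones, and both the highest and the lowest value came from lysates of replicate 2.

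Snhg1, host of 8 annotated snoRNAs, stood in WT at 37.7 and 50.3 TPM (early) and 25.8 and 18.3 (late), and in cKO at 51.2 and 55.5 (early) and 25.2 and 17.1 (late), on 22 to 116 reads. Its early and late libraries did not overlap. Snhg3, host of the H/ACA snoRNAs Snora73a and Snora73b that act in the cleavage of the ribosomal RNA precursor, stood in WT at 21.2 and 26.7 TPM (early) and 10.3 and 4.72 (late), and in cKO at 16.8 and 28.7 (early) and 4.999 and 3.39 (late), on 4 to 56 reads. Every late value of Snhg3 was below every early value. It overlaps the coding gene Rcc1 on the same strand over 5592 nt, and how the authors assigned shared reads is not given in the sources used here. Rcc1 moved the other way, at 0.57 log2 higher in late pools (SE 0.12, adjusted p = 0.00244 by limma).

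Snhg5, host of Snord50a and Snord50b, stood in WT at 29.6 and 30.7 TPM (early) and 20.6 and 10.7 (late), and in cKO at 26.4 and 33.2 (early) and 15.4 and 5.14 (late), on 14 to 149 reads. Again the early and late libraries did not overlap. Snhg12, host of 4 snoRNAs, stood in WT at 12.3 and 13.1 TPM (early) and 10.1 and 8.70 (late), and in cKO at 18.04 and 12.0 (early) and 7.21 and 9.18 (late), on 15 to 52 reads. Its late libraries all lay below its early ones.

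The remaining pair had overlapping libraries and few reads. Snhg6, host of Snord87, stood in WT at 16.2 and 19.9 TPM (early) and 4.65 and 6.19 (late), and in cKO at 10.3 and 17.9 (early) and 11.4 and 1.82 (late), on 2 to 39 reads. The cKO late library of lysate 1 was higher than the early library of the same lysate. Snhg8, host of the H/ACA snoRNA Snora24, stood in WT at 9.46 and 6.63 TPM (early) and 3.61 and 4.67 (late), and in cKO at 13.4 and 5.52 (early) and 7.65 and 2.36 (late), on 5 to 50 reads. Within each lysate its late value was the lower one, but the lysates differed enough for early and late libraries to overlap.

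**Figure D1:**
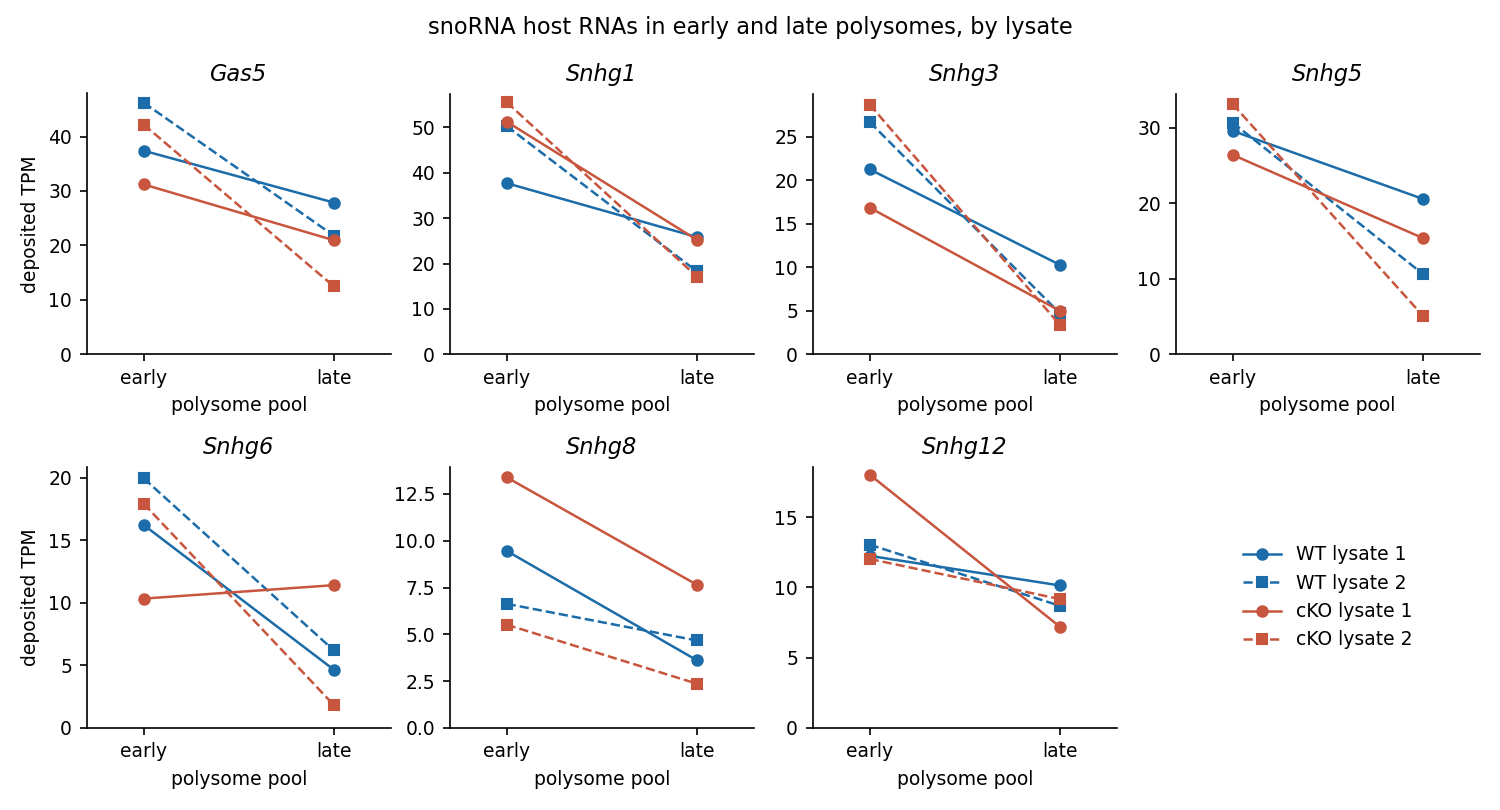
Deposited TPM (y axis, from 0) of each host RNA in the early and late pool (x axis). Lines join the 2 libraries of a lysate, blue for WT and red for cKO, circles and solid lines for lysate 1, squares and dashed lines for lysate 2. In 27 of 28 gene and lysate pairs the line falls from early to late, the exception being Snhg6 in cKO lysate 1.

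In early pools the order of mean scaled TPM (scaled between libraries by median ratios) was Snhg1 at 50.5 ± 8.99, Gas5 at 40.6 ± 6.72, Snhg5 at 31.0 ± 3.28, Snhg3 at 24.2 ± 5.82, Snhg6 at 16.7 ± 4.25, Snhg12 at 14.3 ± 3.03 and Snhg8 at 9.04 ± 3.64 (SD, n = 4 each). Neighbours in this order overlapped in their libraries in every case. In late pools it was Snhg1 at 20.6 ± 4.64, Gas5 at 19.8 ± 6.02, Snhg5 at 12.4 ± 6.36, Snhg12 at 8.37 ± 1.06, Snhg6 at 5.78 ± 3.99, Snhg3 at 5.57 ± 2.88 and Snhg8 at 4.38 ± 2.26 (SD, n = 4 each). Snhg3 thus went from the fourth place in early to the sixth in late pools, where neighbours overlapped as well. The summed deposited TPM of the 7 hosts was 163.9 to 195.0 in the 4 early libraries and 51.5 to 103.0 in the 4 late ones, without overlap.

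The comparison of late with early pools asks where on the gradient the host RNAs sit. All 7 were lower in late pools on average over genotypes (limma, adjusted p under 0.05), where 34.8% of the 16097 genes tested were called lower. The median log2 change, on the scale log2(scaled TPM + 1), was -1.26 for the hosts and -0.014 for all tested genes. Snhg3 fell most, to 23.0% of its early level, and Snhg12 least, to 58.4%. Gas5 kept 48.7%, Snhg8 48.5%, Snhg1 40.8%, Snhg5 39.8% and Snhg6 34.7% of the early mean. In 5 of 7 hosts, and in 31.1% of all tested genes, the 4 late libraries all lay below the 4 early ones.

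By limma, with Benjamini-Hochberg adjustment over all tested genes, the changes were as follows. Snhg3 changed by -2.0 log2 (SE 0.25, adjusted p = 0.000177), Snhg6 by -1.54 (SE 0.42, adjusted p = 0.00986) and Snhg5 by -1.40 (SE 0.31, adjusted p = 0.00383). Snhg1 changed by -1.26 (SE 0.17, adjusted p = 0.000219) and Gas5 by -1.04 (SE 0.19, adjusted p = 0.00117). Snhg12, at -0.70 (SE 0.14, adjusted p = 0.00202), had a small change with a small error. Snhg8, at -0.92 (SE 0.34, adjusted p = 0.0381), was the least certain, and its adjusted p ranged from 0.00248 to 0.127 over the alternatives. Its call was lost in 9 of 17 of them, among these in the fits without WT early replicate 1 (adjusted p = 0.110) or 2 (0.0561), WT late replicate 1 (0.101) or 2 (0.0658), cKO early replicate 1 (0.127, at -0.64 log2) and cKO late replicate 2 (0.113, at -0.57 log2). The other 6 hosts stayed past the threshold in all 17, and of these Snhg6 moved most, to -0.9986 log2 without cKO late replicate 2.

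The drop was seen in both genotypes. In WT the median change of the hosts was -1.07 log2, and Snhg3 (-1.72), Snhg6 (-1.67), Snhg1 (-1.07) and Gas5 (-0.84) were called lower by limma, 4 of 7 against a background of 27.7% of genes. Snhg5 (-1.08, adjusted p = 0.0691), Snhg8 (-0.89, adjusted p = 0.147) and Snhg12 (-0.49, adjusted p = 0.0618) did not pass in WT. With both pools of a lysate as a pair (replicate block), Gas5 (adjusted p = 0.0551) and Snhg6 (0.0587) no longer passed in WT by limma and Snhg8 did (0.0166). Without WT early replicate 2, or without WT late replicate 2, 2 of 7 passed in WT, and without the latter Snhg5 was at -0.62 (adjusted p = 0.358 by limma).

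In cKO the median was -1.42 log2, and Snhg3 (-2.28), Snhg5 (-1.73), Snhg1 (-1.44), Gas5 (-1.24) and Snhg12 (-0.91) were called lower, 5 of 7 against 29.4% of genes. Snhg6 stood at -1.42 (adjusted p = 0.0674 by limma) and Snhg8 at -0.95 (adjusted p = 0.120), the latter passing in the paired fit (adjusted p = 0.0120). Single libraries moved the values of these hosts in cKO. Snhg6 was at -2.498 and passed without cKO late replicate 1 (adjusted p = 0.00123 by limma), and was at -0.33 without cKO late replicate 2 (adjusted p = 0.427). Snhg8 was at -1.65 without cKO late replicate 1 (adjusted p = 0.0174) and -1.52 without cKO early replicate 2 (0.0483), but at -0.39 without cKO early replicate 1 (0.547) and -0.25 without cKO late replicate 2 (0.658). Snhg5 was at -0.996 without cKO late replicate 2 (adjusted p = 0.0474 by limma), and did not pass without cKO early replicate 2 (adjusted p = 0.0601).

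The size of the drop differed between lysates of a genotype. In WT lysate 1 the median of the 7 hosts was -0.61 log2 and in WT lysate 2 -1.53, in cKO lysate 1 -0.83 and in cKO lysate 2 -1.85. The 20 ribosomal protein mRNAs that also host snoRNAs had medians of -0.79, -1.05, -0.81 and -1.39 in the same lysates, and the median of all tested genes lay between -0.0035 and 0 in each. Among the 5 hosts without overlap, Snhg5 showed the widest range, from -0.59 in WT lysate 1 to -2.64 in cKO lysate 2, and Snhg3 ran from -1.06 to -2.91 in the same lysates. In both genotypes lysate 2 showed the larger drop for Gas5, Snhg1, Snhg3 and Snhg5. Snhg6, Snhg8 and Snhg12 did not follow that order in both genotypes.

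Coding length moved with the change between pools. Among mRNAs with a coding sequence of up to 300 nt (248 genes) the median was -1.36 log2 (quartiles -1.62 and -1.07), and the median rose through -1.02, -0.29 and 0.25 to 0.47 log2 for coding sequences above 2400 nt. The longest frames of the hosts, 108 to 201 nt with the stop, all fall in the shortest class by length. Snhg1, Snhg5 and Snhg6 lay between its quartiles, Snhg3 below them, and Gas5, Snhg8 and Snhg12 above. By first frame, the changes were -0.92 log2 in Snhg8 (1 codon), -1.40 in Snhg5 (3) and -1.26 in Snhg1 (7). They were -1.04 in Gas5 (23), -2.0 in Snhg3 (42), -1.54 in Snhg6 (53) and -0.70 in Snhg12 (54). The order of first-frame lengths was not that of the changes. The part of frame length in the drop was not tested.

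**Figure D2:**
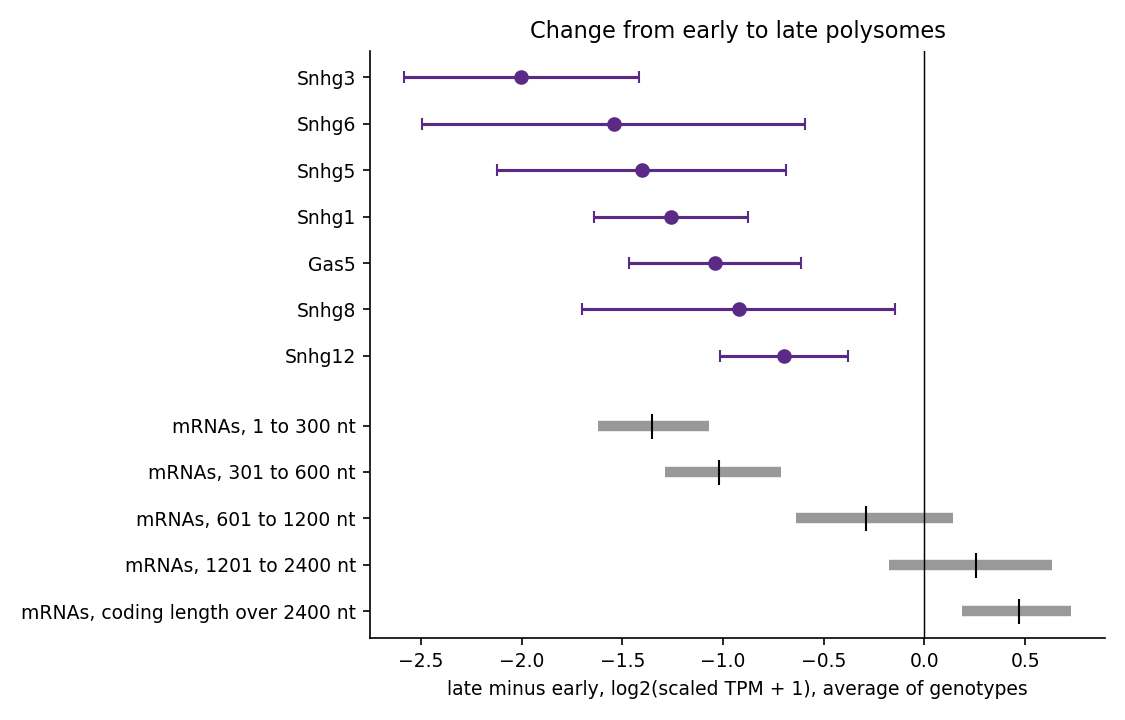
Late minus early change in log2(scaled TPM + 1), averaged over genotypes (x axis). Points are the 7 host RNAs with 95% intervals from limma, and grey bars with a black tick are the quartiles and median of mRNAs in 5 classes of coding length. The hosts lie between -2.0 and -0.70, all left of 0, and the classes with the shortest coding sequences have medians of -1.36 and -1.02.

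Cell type markers also moved between pools. The summed deposited TPM of 4 sustentacular (supporting) cell markers was 1262 to 1724 in early and 4203 to 5097 in late libraries, and that of 4 Bowman gland markers 3173 to 6794 in early and 8930 to 15476 in late libraries. Horizontal basal cell markers (3) summed to 34.9 to 51.1 and 68.5 to 80.1, and globose basal and progenitor markers (6) to 242 to 288 and 361 to 390, in early and late libraries. The 7 mature olfactory neuron markers were lower in late pools, at 8448 to 10463 in early and 6656 to 8034 in late libraries. Over both genotypes, sums for immature neurons, ensheathing glia, immune and ciliated cells overlapped between pools. Within each genotype those of immature neurons (5 markers) did not. They were 1737 to 1803 (early) and 1892 to 2059 (late) in WT, and 1556 to 1570 and 1630 to 1697 in cKO. Every cKO sum of these markers was thus below every WT sum. The part of this difference in the genotype comparison of the hosts was not tested. Sums for immune and ciliated cells did not overlap between pools in cKO, but did in WT. 0 markers of these lists were at 0. Each early pool came from the same lysate as a late pool, so the shifts between pools describe where marker mRNAs lay on the gradient. The part of the marker shifts in the drop of the host RNAs was not tested. TPM is a share of the RNA in each pool, and unfractionated RNA was not analysed here, so the values do not say what part of all Gas5 or Snhg1 RNA is on polysomes.

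Other RNAs were compared by lists. As background, 11094 of all 16097 tested genes were called in either direction, and 34.8% of them all were called lower. Of the other noncoding snoRNA hosts, 9 were in the table and 7 could be tested, and 5 of 7 were lower in late pools (median -0.86), 0 higher. These were Snhg18 (-1.37 log2, SE 0.10, adjusted p = 2.1e-05 by limma), Snhg20 (-1.22), Snhg7 (-0.86), Snhg17 (-0.75) and Snhg4 (-0.74). Zfas1, listed under its synonym 1500012F01Rik, was at -1.08 (adjusted p = 0.0529 by limma) and Snhg10 at -0.27 (adjusted p = 0.0810). Snhg9 and Dancr were below the minimum mean TPM of 1. Of 9 tested nuclear long noncoding RNAs, 7 were lower and 0 higher (median -0.77), with Malat1 at -1.43, Neat1 at -1.25 and Firre at -0.90. This list is not free of snoRNA hosts, since it holds Snhg14 (-0.58, adjusted p = 0.0449 by limma), a snoRNA host gene by its name. Malat1 and Neat1 are mainly nuclear RNAs, and whether ribosomes read them was not tested.

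Protein-coding genes that carry snoRNAs in their introns went in both directions. Of 20 ribosomal protein hosts 16 were lower in late pools and 0 higher (median -1.02), led by Rpl32 (-1.69), Rps12 (-1.49) and Rpl23a (-1.47). Of the 10 other coding hosts 6 were higher and 1 lower (median 0.56). Nop56, a core box C/D protein, stood at 1.02, the chaperone Hspa8 at 0.92 and nucleolin (Ncl) at 0.89, while the elongation factor subunit Eef1b2 fell, at -0.48. Carrying a snoRNA in an intron did not go with 1 position on the gradient.

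The mRNAs for proteins that assemble snoRNAs were split. Of 11, 6 were higher in late pools (median 0.64), with Nolc1 at 1.44, Nop56 at 1.02 and Fbl, the methyltransferase of box C/D particles, at 0.98. The 4 that were lower included the small proteins Nop10 (-2.12), Nhp2 (-1.55) and Nhp2l1 (-1.52). Among 10 nonsense-mediated decay factors 7 were higher and 1 lower (median 0.51), with the helicase Upf1 at 1.11, Smg9 at 0.99, Upf3b at 0.72 and Upf3a at -0.69.

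**Figure D3:**
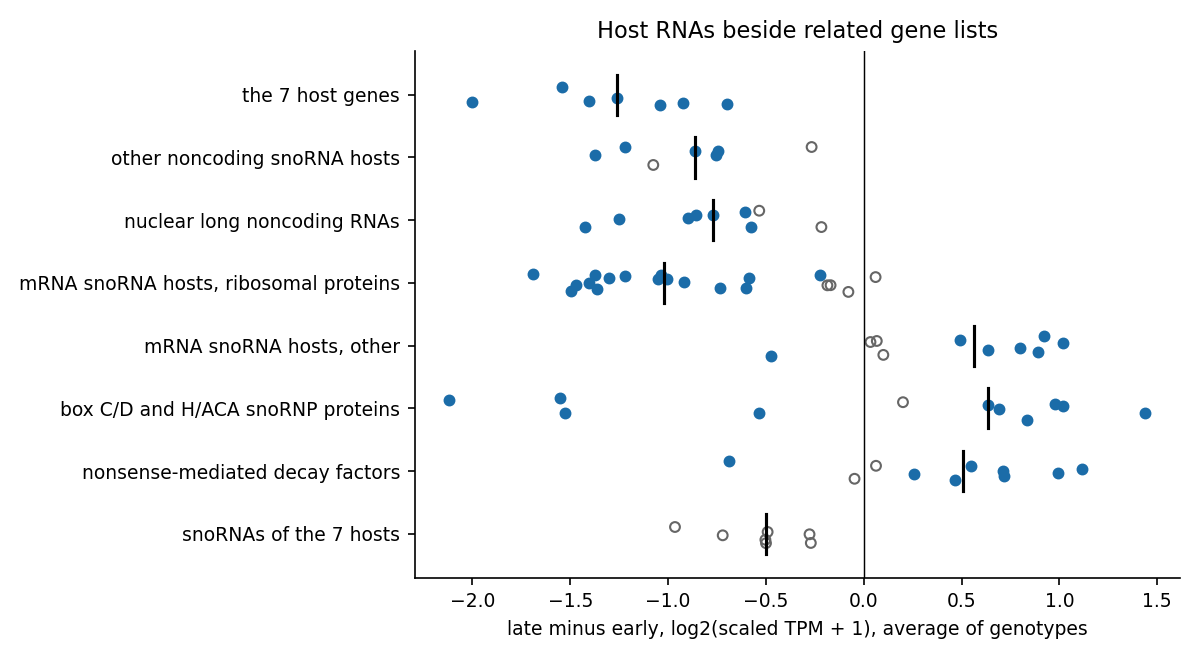
Late minus early change in log2(scaled TPM + 1), averaged over genotypes (x axis), of each tested gene in 8 lists (rows). Filled points passed an adjusted p of 0.05 by limma, open points did not, black ticks are list medians, and vertical scatter within a row has no meaning. The 7 host genes have the lowest median, -1.26, and the other coding hosts, the snoRNA proteins and the decay factors have medians above 0.

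The snoRNAs themselves could be set beside their hosts in part. GENCODE places 27 named small RNAs inside the 7 hosts on the same strand, and 7 of these names are rows of the table: Snord47 (in Gas5), Snord22 (Snhg1), Snord87 (Snhg6), and Snora16a, Snora44, Snora61 and Snord99 (Snhg12). Snord22 was by far the most abundant of them, at 559 to 1550 deposited TPM on 195 to 857 reads, while Snora61 rested on 2 to 14 reads. How TPM was computed for RNAs shorter than a sequenced fragment is not given in the sources used here, and Snord99 lies in an exon of the Snhg12 isoform used, so its reads cannot be told apart from those of the host. Gas5 and Snhg1 also have annotated transcripts that retain an intron. Whether reads of Snord47 or Snord22 can be told apart from such host transcripts is not known.

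By limma 11094 of 16097 genes passed between late and early pools on average, and none of the 7 snoRNAs (lowest adjusted p = 0.0502, Snora61). Their changes were -0.27 for Snord47, -0.49 for Snord22, -0.72 for Snord87, -0.50 for Snora16a, -0.50 for Snora44, -0.96 for Snora61 and -0.28 log2 for Snord99. The change of the snoRNA minus that of its host was above 0 in 4 of 4 lysates for Snord22 against Snhg1 (mean difference 0.77 ± 0.64 log2, SD, n = 4) and for Snord87 against Snhg6 (0.82 ± 0.33). Both gave p = 0.125 in an exact two-sided sign-flip permutation test over lysates, the smallest p that 4 lysates allow (adjusted p = 0.438 over the 7 pairs). In cKO lysate 1 the late values of Snord22, Snord87, Snord47, Snora16a, Snora44 and Snhg6 itself were above the early ones. Those of Snora61 and Snord99 were below. Snord47 against Gas5 was above 0 in 3 of 4 lysates (0.77 ± 0.69), and the snoRNAs of Snhg12 against their host in 1 to 3 of 4.

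**Figure D4:**
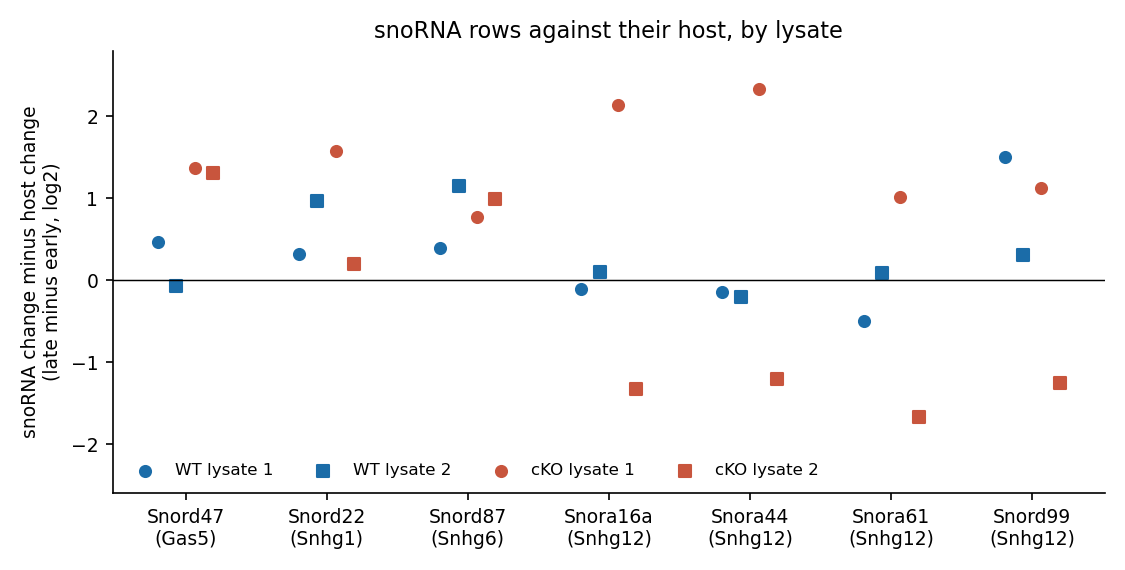
Change of each snoRNA row minus the change of its host (late minus early, log2(scaled TPM + 1), y axis) for 7 snoRNAs (x axis, host in brackets), 1 point per lysate, blue for WT, red for cKO. Snord22 and Snord87 lie above 0 in 4 of 4 lysates, and the snoRNAs of Snhg12 spread on both sides of 0, highest in cKO lysate 1 for Snora16a, Snora44 and Snora61 and in WT lysate 1 for Snord99.

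The genotype comparison asks whether loss of Mex3a, an RNA-binding protein, changed the host RNAs on polysomes. No host was called by limma in early pools (0 of 7, against 0.0435% of all genes), in late pools (0 of 7, against 0.0124%) or on lysate means, each averaging both pools of a lysate (0 of 7, against 0.00621%). At an unadjusted p under 0.05 were 0, 0 and 1 of 7, against 6.63%, 9.32% and 11.3% of all genes, and limma's voom on the inferred reads also called 0 in each. With so few genes called at all, the intervals say more than the counts. In bulk tissue, fewer cells of a type and less RNA per cell cannot be told apart.

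Gas5 was that 1 host, a share near that of all genes, at -0.34 log2 in cKO on lysate means (95% interval -0.55 to -0.13, adjusted p = 0.364 by limma). It stood at -0.13 in early (interval -0.74 to 0.47) and -0.54 in late pools (-1.14 to 0.06). Snhg3 was at -0.33 on lysate means (interval -0.68 to 0.02), from -0.05 in early and -0.61 in late pools. Snhg5 was at -0.30 (-0.84 to 0.24), from 0.03 in early and -0.62 in late pools.

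Snhg1 stood at 0.16 on lysate means (interval -0.08 to 0.40), at 0.34 in early (-0.20 to 0.88) and -0.03 in late pools (-0.57 to 0.51). Snhg12 had the value nearest to 0 on lysate means, 0.05 (interval -0.21 to 0.31). For Snhg6 (-0.20, interval -0.80 to 0.41) and Snhg8 (0.14, interval -0.81 to 1.09) the intervals were wide, and in early pools that of Snhg6 ran from -1.67 to 1.02. A change of 1 log2 unit was thus outside the lysate-mean interval for all hosts but Snhg8. This did not hold for single pools. In late pools the intervals of Snhg5 (-1.64 to 0.39), Snhg3 (-1.44 to 0.21), Gas5 (-1.14 to 0.06), Snhg6 (-1.42 to 1.28) and Snhg8 (-0.99 to 1.21) held such a change. In early pools those of Snhg5 (-0.98 to 1.05), Snhg6 and Snhg8 (-0.93 to 1.27) did.

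The interaction asks whether the change between pools differed between genotypes. It was called in 0 of 7 hosts by limma, against 0.00621% of all genes, and 0 of 7 had an unadjusted p under 0.05, against 2.8% of all genes. In 6 of 7 hosts the value was negative, a larger fall in cKO, from -0.66 for Snhg5 (interval -2.09 to 0.78) to -0.06 for Snhg8, and Snhg6 was at 0.25 (-1.65 to 2.16). The median of all tested genes was -0.0096, and the share of them with a negative value was not counted. Over the 17 alternatives Snhg5 ran from -1.39 to 0.08, Snhg8 from -0.76 to 0.64 and Gas5 from -0.78 to -0.03. Snhg5 stood at -0.59 and -1.56 in the WT lysates and at -0.83 and -2.64 in the cKO lysates, so that the genotypes overlapped. Voom on the inferred reads also called 0 hosts. No gene of the other lists was called in a genotype comparison or in the interaction.

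**Figure D5:**
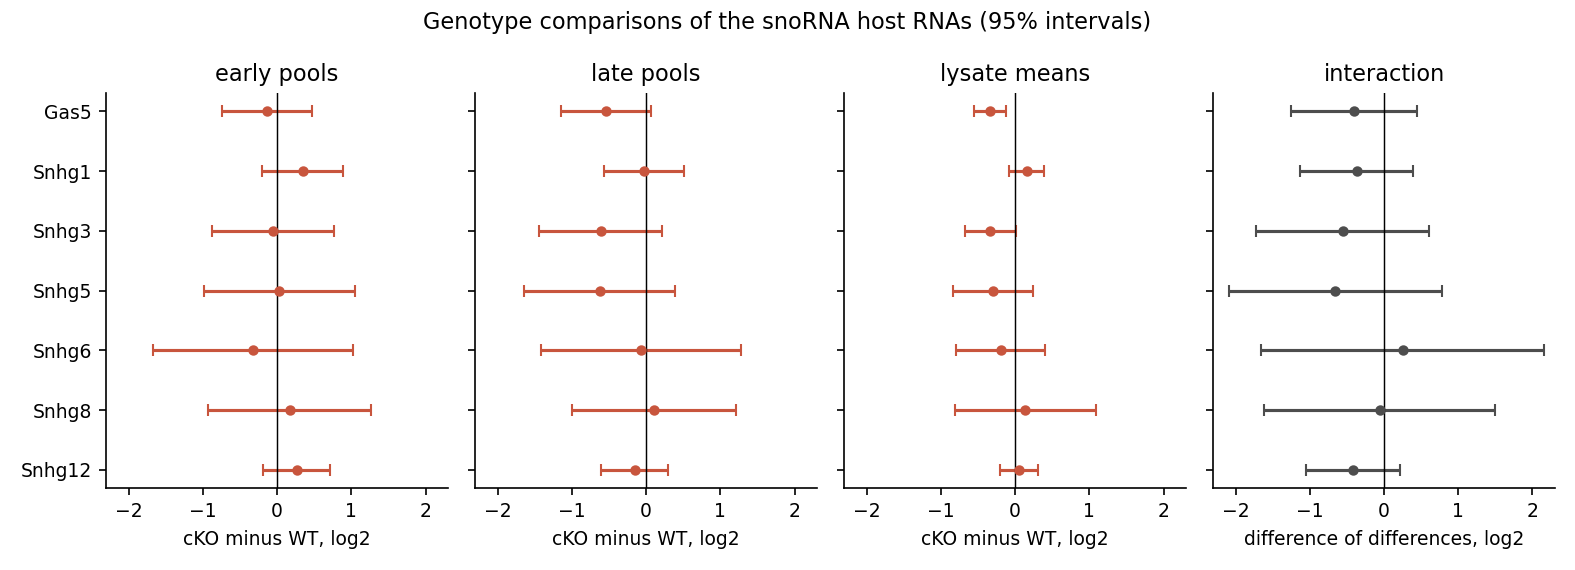
cKO minus WT difference in log2(scaled TPM + 1) for each host (rows) in early pools, late pools and lysate means, and the interaction (change between pools in cKO minus that in WT). Points are limma estimates and bars 95% intervals, and Gas5 on lysate means (-0.55 to -0.13) is the interval that does not reach 0.

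The genes whose values over the 8 libraries lay closest to the median profile of the hosts were named by a distance rule. After centring each gene, the root mean square distance was 0.065 log2 for Rfesd, 0.077 for Timm10b, 0.079 for Mrpl21, 0.081 for Rps13 and 0.081 for Lyrm2, against a median of 0.746 over the 12242 genes compared. The hosts' own distances ran from 0.163 (Gas5) to 0.50 (Snhg8). Rps13 had 118 to 698 inferred reads per library and Lyrm2 48 to 319.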

How the data were processed

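RNA of 8 libraries was measured by stranded total RNA sequencing of polysome pools (SMARTer Pico kit, per the labels' protocols). The authors deposited 1 table of TPM, and mm10, FastQC, cutadapt, STAR and DESeq2 are named in the submitters' processing notes without versions. The counting method and annotation are not given in the sources used here. Groups and replicates came from sample titles, and the lysate from library names. TPM was scaled by median ratios, and log2(scaled TPM + 1) was fitted with limma 3.58.1 (R 4.3.3), with empirical Bayes and a mean-variance trend, for 16097 genes whose deposited TPM averaged 1 or more. All 4 groups shared 1 fit, with two-sided tests and a Benjamini-Hochberg threshold of 0.05. This scale understates changes of low genes. On simulated libraries with 200 of 15967 genes changed 3-fold between pools, the fit recovered 199 on average, 191 in WT and 195 in cKO. False calls were 15 of 214, 23 of 214 and 24 of 219. With 200 of 15973 changed between genotypes the fit recovered 187 in early pools, 188 in late pools and 198 on lysate means. False calls were 21 of 208, 18 of 206 and 27 of 225. In each case false calls were a larger share than 0.05. Between the real pools far more genes were called, 11094 of 16097. Every simulated gene had the same set spread between libraries, all libraries had the same expected depth, and no lysate effect was put in. Recovery at the reads and spread of the hosts was not tested. Whole reads were inferred for 19783 genes from TPM steps, within a tolerance of 0.001, since TPM states no depth. They show the likely reads behind each value.

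Early and late libraries of a lysate share a library name stem, so they are pairs. Over all genes, the correlation of their deviations from group means was 0.0865 (WT) and 0.0503 (cKO). The members, the lists and the tests were chosen with earlier results of these data known. Named were every member, Mex3a, of each list up to 3 genes with the largest rise and 3 with the largest fall past the threshold between late and early pools, and the 5 nearest profiles. Rcc1, Snhg17, Snhg4, Snhg10, Snhg14, Zfas1, Snhg9, Dancr and the snoRNAs were named outside that rule, after their values were seen. Annotation came from GENCODE M21 (GRCm38) and RefSeq (GRCm38.p6), neither known to be the authors' annotation. Alternatives were pseudocounts of 0.1 and 0.5, a minimum mean TPM of 5 or none, unscaled TPM, quantile normalization, no mean-variance trend, voom on inferred reads, replicate blocks, only the 4 libraries compared, and leaving out each library. Figures were drawn with matplotlib 3.10.9.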

Additional observations from a re-analysis of the deposited data

How the results depend on the processing

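Between late and early pools, 6 or 7 of the 7 host genes were lower on average over genotypes in all 17 alternatives, and 5 to 7 in cKO in all 18. In WT 4 hosts were called, against 2 without a minimum TPM and 7 in the fit of only the 4 WT libraries, and ran from 2 to 5 in the fits that left out 1 library. The cause was not tested, except that a fit without a WT library has fewer samples by construction. The share of all genes called lower is given for the main fit only. Whether the host calls moved with that share was not tested. All-gene counts over the alternatives hold both directions, and the number of genes tested changed with the minimum TPM. The replicate block by lysate gave 7 hosts on average, 3 in WT and 6 in cKO, changing the WT calls of Gas5, Snhg6 and Snhg8 and the cKO call of Snhg8, and 0 in the interaction. A replicate block on the number that WT and cKO lysates share, which no label says marks a batch or day, called 0 hosts. Deviations of same-numbered libraries had correlations of 0.332 (early) and 0.143 (late).

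Genotype comparisons and the interaction called 0 of 7 hosts in every alternative run, while all-gene counts moved: 0 to 12 in early pools, 0 to 15 in late pools, 0 to 80 on lysate means (58 with voom, 80 with the block on the number) and 0 to 7 in the interaction. The all-gene count in WT between pools ran from 5816 to 9369. The pyrimidine run at the start was found in 4 hosts, in 5 with the C within 20 bases, and in 1 with at least 6 pyrimidines. Within 20 bases it stood at 53.3% of genes, 10 of 12 ribosomal protein hosts, 7 of 10 other noncoding hosts and 3 of 9 decay factors. Depth limits Snhg3, Snhg6 and Snhg8 most, at 2 to 56 reads per library.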
